A study of Homo sapiens with 8 samples.

Results

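The genes described here are 58 human genes that act in G2 and mitosis, the stages of the cell cycle in which a cell with copied chromosomes prepares to divide and then divides. They were taken as a list of named genes, put together with earlier results of these data known, out of 11214 genes tested on the arrays. No threshold on measured values chose them, and every probe of each was read in every sample. The groups, in that order, were AC133 high and AC133 negative cells of the human colon carcinoma line Caco2, and AC133 high and AC133 negative cells of the human melanoma line WM115. AC133 is an antibody to an epitope of CD133, a membrane protein encoded by PROM1, and the study asked whether display of that epitope varies with the cell cycle. The brightest 10% of cells and the cells without AC133 staining were collected by flow cytometry after dead cells and doublets had been gated out, in 2 sorts of each line, which gave 8 arrays. All Caco2 cells, high and negative, held a reporter, a green fluorescent protein gene under the mouse Melk promoter. They derived from 2 clones, and how clones map to sorts is not stated. WM115 is given with no such reporter. RNA was read on Illumina HumanRef-8 BeadChips. Every value below is a normalized log2 signal, or a log2 difference of such signals with AC133 negative subtracted from AC133 high or WM115 subtracted from Caco2, and a difference of 1 is a change of 2-fold. A difference is called where limma's p-value, adjusted by Benjamini-Hochberg over all 13844 tested probes, is under 0.05.

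Entry into mitosis is driven by the kinase CDK1 bound to cyclin A or B, and the kinases PLK1 and the Aurora kinases then direct spindle assembly. Kinetochores built on the histone variant CENPA attach chromosomes to microtubules, the spindle checkpoint holds anaphase until attachment is complete, and the anaphase-promoting complex with CDC20 then tags the cyclins and securin for destruction. Most of these genes are transcribed in a wave late in the cycle under B-MYB, FOXM1 and the MuvB complex, which reads a promoter element named the cell cycle genes homology region (CHR), often beside CCAAT boxes bound by NF-Y.

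The 58 genes had 62 probes, all 62 were tested, and 57 genes were detected on all 8 arrays. GAS2L3 was detected on 7. CDK1, KIF23, NUF2 and SMC4 had a pair of probes each, and the probe with the higher mean signal was used. The second probes gave AC133 differences of the same sign in WM115. In Caco2 the second NUF2 probe gave -0.16 against 0.12 for the first. The median bead standard error of these genes was between 3.03% and 5.68% of the signal.

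The sort was visible in PROM1. Its signal in Caco2 was 10.95 and 11.12 in AC133 high cells, against 6.65 and 7.06 in AC133 negative cells, which is 18.1-fold (limma, adjusted p = 4.1e-04). In WM115 it was 9.60 and 9.54 in AC133 high cells, against 5.72 and 6.22 in AC133 negative cells, which is 12.1-fold (limma, adjusted p = 6.91e-04). Of 9 intestinal markers, 7 were detected on all 4 Caco2 arrays and none on all 4 WM115 arrays. CDX1 was not detected on any Caco2 array. Of 7 melanocytic markers on the array, 6 were detected on all 4 WM115 arrays and 5 on no Caco2 array. Of 5 blood markers, CD14 and LYZ were detected on all 4 Caco2 arrays and LYZ alone on all 4 WM115 arrays, with CD3E and HBB on none. The AC133 negative array of the second WM115 sort stood apart from its line, where 175 probes lay over 2-fold higher, and 37 over 2-fold lower, than on any of the other 3 WM115 arrays. None of the 58 genes was among those probes.

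Promoter windows of 48 of the 58 genes were in the RefSeq table of build GRCh38.p14, as 59 windows of 250 bases before to 50 bases after a transcript start. The sequences of HMMR, CENPA and CDK1, whose windows hold the CHR letters, are shown. HMMR and CENPA had the smallest p-values in the AC133 difference averaged over the lines below. CDK1 had the smallest p among cyclins and their regulators in WM115. CCNA2 had a smaller p than CDK1 in the average, but its window lacked the CHR letters and is not shown. The choice thus favoured windows with the letters. HMMR encodes a hyaluronan receptor that also binds spindle microtubules. Capitals mark CCAAT (or ATTGG, its reverse) and the CHR letters TTTGAA or TTCGAA (or TTCAAA, the reverse of the first).
HMMR, chr5:163460382-163460681 (+ strand): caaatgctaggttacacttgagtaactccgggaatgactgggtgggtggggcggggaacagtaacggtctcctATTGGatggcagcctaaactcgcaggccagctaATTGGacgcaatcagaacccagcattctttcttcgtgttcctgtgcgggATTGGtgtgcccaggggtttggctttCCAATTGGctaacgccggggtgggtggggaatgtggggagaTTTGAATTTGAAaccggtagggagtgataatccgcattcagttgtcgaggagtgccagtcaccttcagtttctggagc
CENPA, chr2:26785806-26786105 (+ strand): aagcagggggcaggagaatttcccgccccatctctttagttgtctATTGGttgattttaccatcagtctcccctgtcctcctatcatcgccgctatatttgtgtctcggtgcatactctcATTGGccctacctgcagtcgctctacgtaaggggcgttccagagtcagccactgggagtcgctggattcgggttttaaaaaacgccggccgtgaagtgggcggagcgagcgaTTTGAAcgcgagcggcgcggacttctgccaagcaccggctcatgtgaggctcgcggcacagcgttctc
CDK1, chr10:60778228-60778527 (+ strand): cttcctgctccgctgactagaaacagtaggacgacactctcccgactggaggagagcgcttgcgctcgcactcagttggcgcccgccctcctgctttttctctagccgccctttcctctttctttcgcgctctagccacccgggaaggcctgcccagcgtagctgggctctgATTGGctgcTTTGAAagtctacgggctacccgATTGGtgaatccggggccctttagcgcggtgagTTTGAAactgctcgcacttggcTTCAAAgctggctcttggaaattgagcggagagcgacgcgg

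The CHR letters were in 36 of the 48 genes (75%), against 16.0% of the 9247 tested genes with a window. CCAAT was in 36 genes as well (75%), against 43.9% of the tested genes. The letters TTTCGCGC or TTTGGCGC, an E2F-like site of S phase genes, were in 2 of the 48 (4.17%), against 2.39%. All searches covered both strands. Over windows, the CHR letters were in 39 of 59 (66.1%), against 16.4% of all 35116 windows in the table. From 50 bases before the start onward they were in 31 of 59 (52.5%), against 5.01% of all windows. In 11 genes they began between positions -31 and -26, on a count that has no position 0, with bases before the start negative and the rest positive. That band was not planned, and the share of all windows with a match in it was not computed. Matches of other genes lay elsewhere, such as -38 in CDC25B and 41 in CENPF.

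The windows around the match are given for 2 CDK-binding subunits (CKS1B, CKS2), a cyclin, a phosphatase and the kinase PLK1, and for KIF14, ECT2 and G2E3, which lead their groups in WM115. Capitals mark the CHR letters.
CCNB2, window chr15:59104896-59105195 (+ strand), match at -29: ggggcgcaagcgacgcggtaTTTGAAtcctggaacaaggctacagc
CKS1B, window chr1:154974431-154974730 (+ strand), match at -30: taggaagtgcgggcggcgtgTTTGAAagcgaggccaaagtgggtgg
CKS2, window chr9:89310945-89311244 (+ strand), match at -29: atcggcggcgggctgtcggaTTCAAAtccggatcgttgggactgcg
CDC25C, window chr5:138331755-138332054 (- strand), match at -30: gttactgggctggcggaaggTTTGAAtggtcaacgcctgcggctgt
PLK1, window chr16:23678639-23678938 (+ strand), match at -29: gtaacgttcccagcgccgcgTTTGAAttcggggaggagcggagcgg
KIF14, window chr1:200620702-200621001 (- strand), match at 2: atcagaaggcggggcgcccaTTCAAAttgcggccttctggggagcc
ECT2, window chr3:172750476-172750775 (+ strand), match at 35: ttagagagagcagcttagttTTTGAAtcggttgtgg
G2E3, window chr14:30558908-30559207 (+ strand), match at 4: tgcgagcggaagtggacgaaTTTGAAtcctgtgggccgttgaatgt

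In the windows shown for CCNB2, PLK1, CKS2, CKS1B and CDC25C the letters lay 29 or 30 bases before the start. The matches shown for KIF14, G2E3 and ECT2 lay after it. CDC25C had a second window, chr5:138331828-138332127, in which the letters lay at 44, also after the start. A match describes letters and does not show that a protein binds there.

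**Figure D1:**
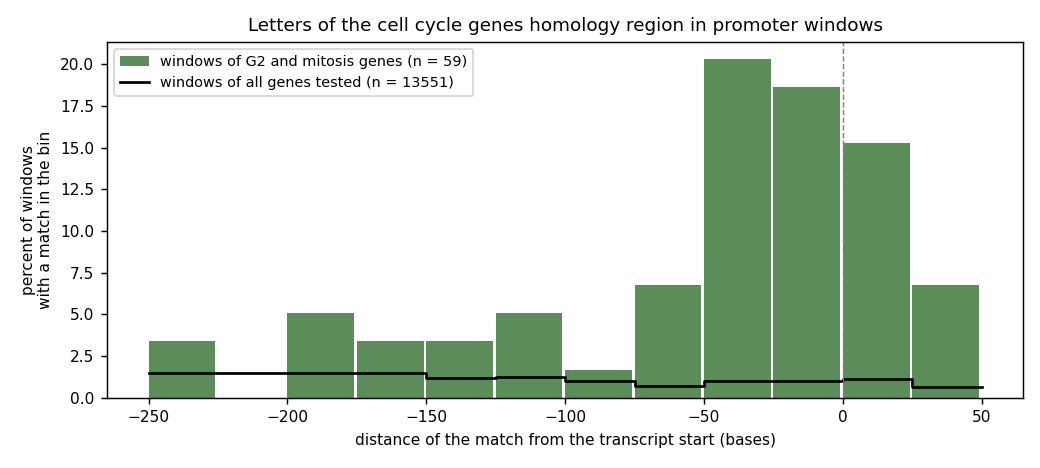
Position of the CHR letters in promoter windows. The x axis gives the distance from the transcript start in bases, in bins of 25, and the y axis the percent of windows with a match in that bin, as bars for the 59 windows of the G2 and mitosis genes and as a line for the 13551 windows of all genes tested. The bars reach 20.3% and 18.6% in the bins just before the start, where the line is at 0.996% and 0.981%.

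In WM115, 56 of the 58 genes had a higher mean signal in AC133 high cells than in AC133 negative cells, against 52.7% of all genes tested. The median difference was 0.31, against 0.01 over all genes tested, and single genes ran between -0.27 (PIMREG) and 0.77 (CDCA2). No gene of the 58 was called, the lowest adjusted p being 0.531, where the share of all genes called was 0.0178%. An unadjusted p under 0.05 was found for 11 of 58 genes, all of them higher in AC133 high cells, against 2.48% of all genes that were higher. In 35 of 58 genes (60.3%) both AC133 high arrays lay above both AC133 negative arrays, against 15.3% of all genes, and in none did they both lie below, against 13.3%. With 2 arrays against 2, an exact permutation test of a single gene cannot give a p below 0.333. These are bulk samples, so more cells in G2 and mitosis and more RNA per such cell cannot be told apart.

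The sorts differed in size. In the first WM115 sort 53 of 58 genes were higher in AC133 high cells, with a median of 0.35, and in the second 45 of 58 were, with a median of 0.25. The shares of all genes that were higher were 50.5% and 52.3% in these sorts. In 41 genes (70.7%) the difference was positive in both sorts, against 25.5% of all genes. On the 4 WM115 arrays, the median of the 58 genes relative to each gene's mean in the line was 0.12 and 0.16 on the AC133 high arrays, against -0.25 and -0.07 on the AC133 negative arrays. The AC133 negative array of the first sort was thus the lowest. Without it 44 of 58 genes were higher and the median was 0.25, and without the AC133 negative array of the second sort, the array that stood apart, 55 were higher and the median was 0.38.

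**Figure D2:**
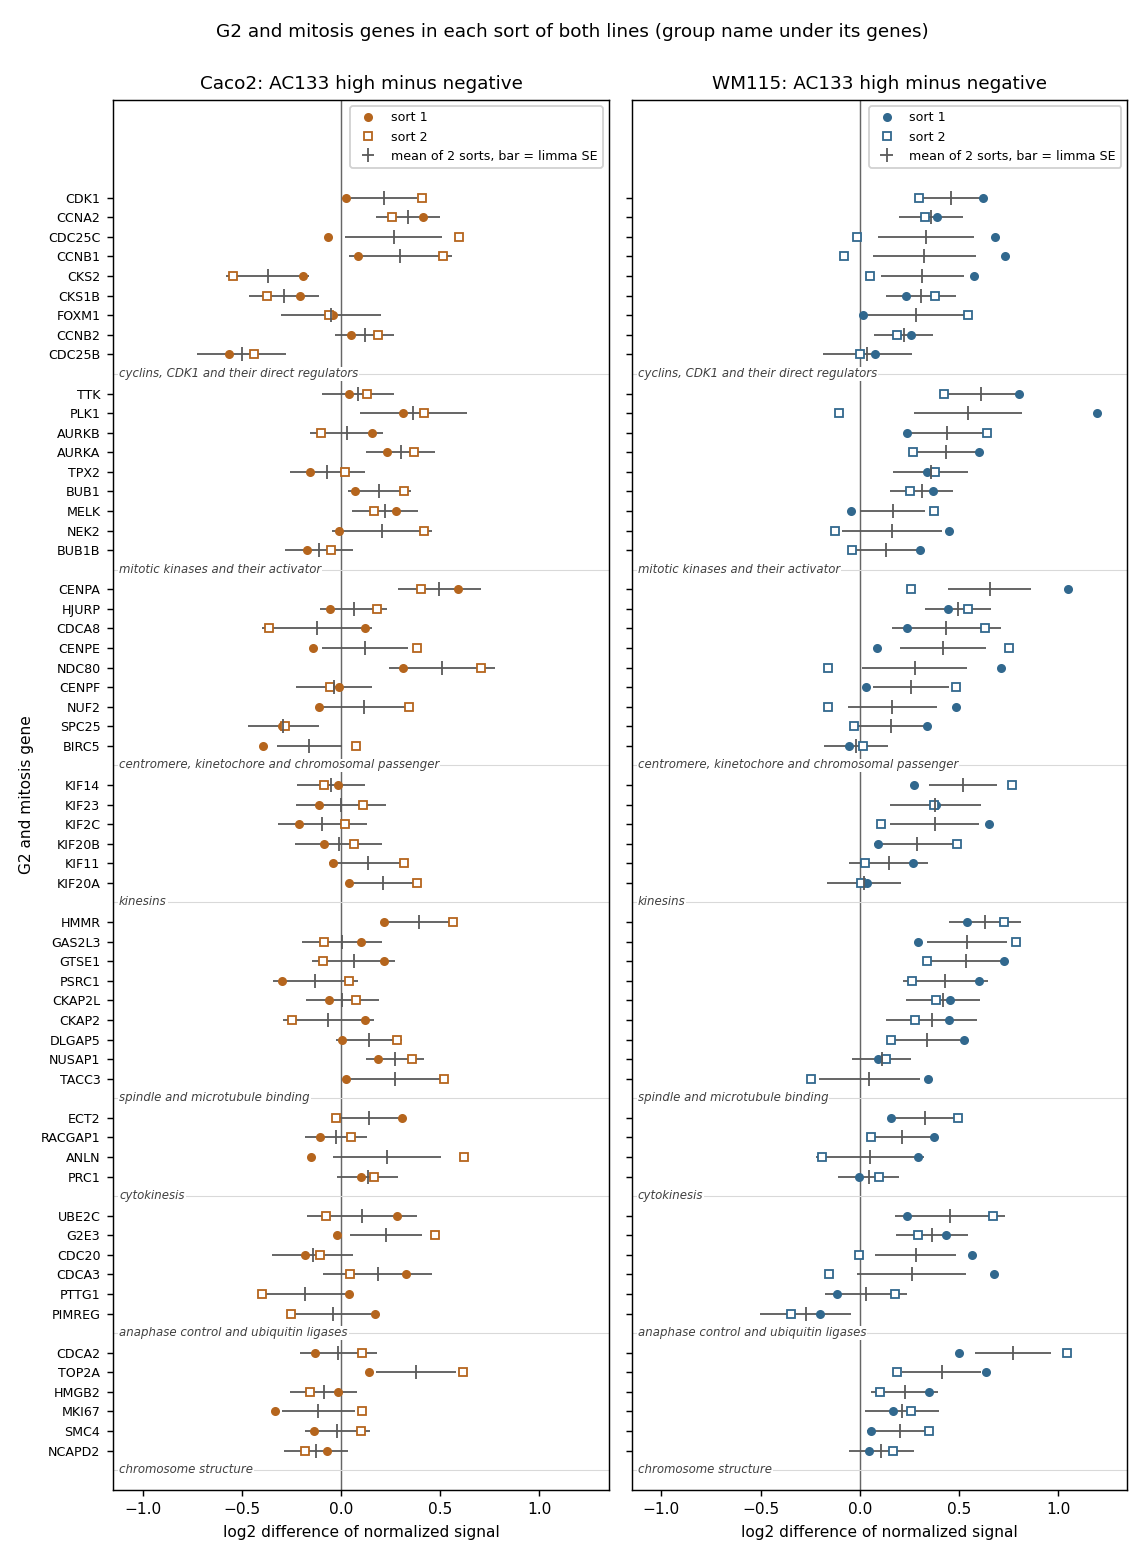
Difference between AC133 high and AC133 negative cells for each of the 58 genes, by functional group, in Caco2 (left) and WM115 (right). The x axis is the log2 difference of normalized signal, filled circles are the first sort, open squares the second, and the tick with its bar is the mean with limma's standard error. In WM115, 41 genes lie right of 0 in both sorts, and in Caco2, 19 do.

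Among cyclins, CDK1 and their direct regulators, all 9 WM115 means were higher in AC133 high cells, with a median difference of 0.31. CDK1 had signals of 10.62 and 10.49 in AC133 high cells, against 10.00 and 10.19 in AC133 negative cells, and its groups did not overlap. The difference was 0.46 ± 0.16 (limma's SE), which is 1.38-fold and was not called (adjusted p = 0.918). Its second probe read 0.36. CCNA2, cyclin A2, had 9.76 and 9.92 in AC133 high cells and 9.37 and 9.59 in AC133 negative cells, also without overlap. CCNB1, cyclin B1, overlapped, with 8.98 and 8.98 in AC133 high cells and 8.25 and 9.06 in AC133 negative cells.

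The mitotic kinases and TPX2, which activates AURKA on the spindle, were higher in mean in 9 of 9 cases, with a median of 0.36. TTK, the kinase that sets the spindle checkpoint, had 9.38 and 9.41 in AC133 high cells, against 8.58 and 8.99 in AC133 negative cells. Both high arrays lay above both negative ones, and the difference was 0.61 ± 0.18, or 1.53-fold (limma, adjusted p = 0.752). AURKA, Aurora kinase A of the spindle poles, had 11.09 and 11.04 in AC133 high cells and 10.49 and 10.77 in AC133 negative cells, again apart. PLK1, a kinase of mitotic entry named here after its values were seen, differed by 1.20 in the first sort and by -0.10 in the second.

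At the centromere and kinetochore 8 of 9 means were higher, with a median of 0.28. CENPA, the histone variant that marks centromeres, had 9.66 and 9.43 in AC133 high cells, against 8.61 and 9.17 in AC133 negative cells. The groups were apart, with a difference of 0.65 ± 0.21, or 1.57-fold (limma, adjusted p = 0.827). HJURP, the chaperone that loads CENPA, had 9.41 and 9.54 in AC133 high cells and 8.967 and 8.997 in AC133 negative cells. BIRC5, survivin of the chromosomal passenger complex, was the exception at -0.02. It read 4.99 and 5.01 in AC133 high cells and 5.04 and 4.99 in AC133 negative cells, the lowest signals of this group. The intestinal marker CDH1, not detected on any WM115 array, read 4.50 to 4.51 there. BIRC5 was thus near the floor, where a difference may not show.

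The spindle and microtubule binding genes had the highest group median, 0.42, with 9 of 9 means higher and 7 of 9 genes with both AC133 high arrays above both AC133 negative arrays, against 15.3% of all genes. HMMR had 9.40 and 9.65 in AC133 high cells, against 8.87 and 8.93 in AC133 negative cells, a difference of 0.63 ± 0.18 or 1.55-fold (limma, adjusted p = 0.699). It was higher by 0.54 and 0.73 in the first and second sort. TACC3, which stabilizes spindle microtubules, was the lowest of the group at 0.05.

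All 6 kinesins, the motors of the spindle, were higher in both WM115 sorts, with a median of 0.33. KIF14, a kinesin of cytokinesis, had 9.16 and 9.42 in AC133 high cells, against 8.89 and 8.65 in AC133 negative cells, and the difference was 0.52 ± 0.17 or 1.43-fold (limma, adjusted p = 0.849). KIF20A, which moves the passenger complex to the midzone, differed by 0.02.

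Of the 4 cytokinesis genes all had higher means, and their median of 0.13 was the lowest of the groups. ECT2, the exchange factor that activates RHOA at the cleavage furrow, had 7.43 and 7.73 in AC133 high cells, against 7.27 and 7.24 in AC133 negative cells, without overlap, at 0.33 ± 0.17 (limma, adjusted p = 1). PRC1, which bundles midzone microtubules, differed by 0.04, and ANLN, an actin binder of the furrow, by 0.05.

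In anaphase control 5 of 6 means were higher. Both AC133 high arrays lay above both AC133 negative arrays in 1 of 6 (16.7%), close to the 15.3% of all genes. That gene was G2E3, an E3 ubiquitin ligase named for G2. Its signals were 6.35 and 6.29 in AC133 high cells, against 5.919 and 5.997 in AC133 negative cells, with a difference of 0.36 ± 0.18 (limma, adjusted p = 1). PIMREG, a regulator of the step into anaphase, had 8.18 and 8.57 in AC133 high cells and 8.39 and 8.92 in AC133 negative cells, and was lower in AC133 high cells in both sorts, by -0.20 and -0.35. It was the only gene of the 58 that was lower in both.

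Of the 6 chromosome structure genes, 6 had both AC133 high arrays above both AC133 negative arrays, against 15.3% of all genes, and their median was 0.22. Some were barely apart. MKI67 had 6.12 and 6.36 in AC133 high cells, against 5.95 and 6.10 in AC133 negative cells. NCAPD2 had 9.51 and 9.48 in AC133 high cells, against 9.47 and 9.31 in AC133 negative cells. CDCA2, which brings a phosphatase to mitotic chromatin, had the largest difference of the 58, with 7.55 and 7.90 in AC133 high cells, against 7.05 and 6.86 in AC133 negative cells. The difference was 0.77 ± 0.19, or 1.71-fold (limma, adjusted p = 0.531). TOP2A, the topoisomerase that untangles sister chromatids, had 10.88 and 10.90 in AC133 high cells and 10.24 and 10.71 in AC133 negative cells.

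In Caco2 the same genes were spread around a small median. The median difference was 0.06, against -0.0048 over all genes, 34 of 58 means were higher in AC133 high cells, against 49.0% of all genes, and single genes ran between -0.50 (CDC25B) and 0.51 (NDC80). No gene of the 58 was called, the lowest adjusted p being 0.625, where the share of all genes called was 0.847%. Only CENPA had an unadjusted p under 0.05, where 4.25% of all genes did and were higher. Both AC133 high arrays lay above both AC133 negative arrays in 17 of 58 genes, against 19.0% of all genes, and below in 5, against 20.0%. In the first sort 28 of 58 genes were higher, with a median of -0.01, and in the second 38 were, with a median of 0.10.

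Cyclins and their regulators split in Caco2, with 5 of 9 means higher. Both AC133 high arrays lay above both AC133 negative arrays in 4 of them, CCNA2, CCNB1, CDK1 and CCNB2, against 19.0% of all genes, and below in 3, CDC25B, CKS1B and CKS2, against 20.0%. CDC25B, a phosphatase that activates CDK1, had 9.27 and 8.83 in AC133 high cells, against 9.83 and 9.27 in AC133 negative cells, and was lower in both sorts, at -0.50 ± 0.23 (limma, adjusted p = 0.675). CKS1B had 11.42 and 11.23 in AC133 high cells, against 11.63 and 11.60 in AC133 negative cells. CKS2, which like CKS1B docks CDK1 on its substrates, had 9.31 and 8.83 in AC133 high cells and 9.50 and 9.37 in AC133 negative cells. CCNA2 lay the other way, with 10.93 and 10.77 in AC133 high cells and 10.52 and 10.51 in AC133 negative cells. The differences of CCNB1, CDK1 and CCNB2 were 0.30, 0.22 and 0.12. The second CDK1 probe read 0.19, with -0.0020 in the first sort and 0.39 in the second, and its groups overlapped. Of these 7 genes the groups of CDC25B were apart by the least.

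The mitotic kinases were higher in mean in 7 of 9 cases, with a median of 0.19. AURKA had 11.63 and 11.48 in AC133 high cells, against 11.40 and 11.11 in AC133 negative cells, apart, at 0.30 ± 0.18 (limma, adjusted p = 0.828). MELK, the gene whose mouse promoter drives the reporter in these cells, had 9.57 and 9.63 in AC133 high cells and 9.29 and 9.47 in AC133 negative cells. Its difference was 0.22 ± 0.16.

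CENPA was the kinetochore gene with the smallest p, at 9.28 and 9.26 in AC133 high cells, against 8.69 and 8.86 in AC133 negative cells. Its difference was 0.50 ± 0.21, or 1.41-fold (limma, adjusted p = 0.625), with 0.59 in the first sort and 0.40 in the second. HMMR, of the spindle group, had 10.48 and 10.43 in AC133 high cells, against 10.27 and 9.86 in AC133 negative cells, at 0.39 ± 0.18 (limma, adjusted p = 0.698). TOP2A, of the chromosome group, had 10.88 and 11.15 in AC133 high cells, against 10.74 and 10.54 in AC133 negative cells, at 0.38 ± 0.20 (limma, adjusted p = 0.774). These genes read higher on both AC133 high arrays, while 5 of the 6 chromosome structure genes had lower means in AC133 high cells.

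The kinesins were at a median of -0.01 with 3 of 6 means higher. KIF20A had 10.07 and 10.00 in AC133 high cells and 10.03 and 9.62 in AC133 negative cells. Cytokinesis genes had a median of 0.14, and PRC1 among them had 10.48 and 10.40 in AC133 high cells and 10.38 and 10.23 in AC133 negative cells. G2E3 was driven by its second sort, at 0.47, with -0.02 in the first.

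**Figure D3:**
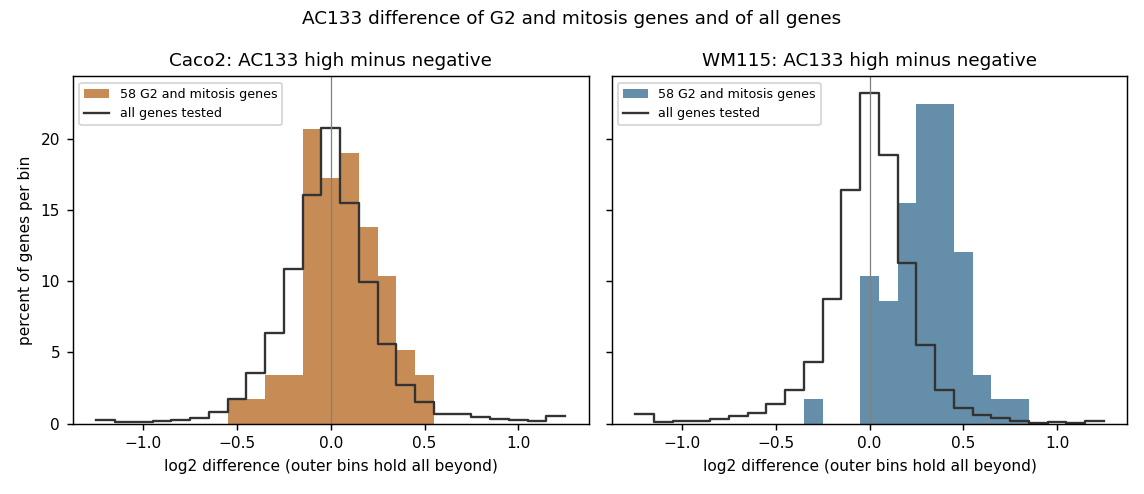
Distribution of the difference between AC133 high and AC133 negative cells in Caco2 (left) and WM115 (right). The x axis is the log2 difference in bins of 0.1 and the y axis the percent of genes per bin, as bars for the 58 G2 and mitosis genes and as a line for all 11214 genes tested. In WM115 the bars centre near the median of 0.31, right of the line. In Caco2 the bars largely overlap the line but lie slightly right of it, with a median of 0.06. There the bar is at 3.45% against 10.8% between -0.25 and -0.15, and at 10.3% against 5.58% between 0.25 and 0.35.

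Averaged over the lines, 51 of 58 genes were higher in AC133 high cells, with a median of 0.18, against 50.3% and 0.00 over all genes. None was called, with a lowest adjusted p of 0.297, where 0.107% of all genes were called. Differences with an unadjusted p under 0.05 were found in 11, all higher, against 4.08% of all genes. The smallest p belonged to HMMR, with 0.51 ± 0.13 or 1.43-fold (limma, adjusted p = 0.297). CENPA followed at 0.58 ± 0.15 or 1.49-fold (limma, adjusted p = 0.303), then CCNA2 at 0.35 ± 0.11, AURKA at 0.37 ± 0.12 and CDK1 at 0.34 ± 0.12. Each of these genes was higher in all 4 sorts by the probe used, as were 12 of the 58 (20.7%), against 7.86% of all genes. The second CDK1 probe was at -0.0020 in the first Caco2 sort.

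The difference between the lines was tested directly, as the AC133 difference in Caco2 minus that in WM115. Its median was -0.24 and it was negative in 49 of 58 genes, so the Caco2 differences were mostly the smaller. Over all genes tested the median was -0.02, with 5925 of 11214 negative. None was called, with a lowest adjusted p of 0.654, where 0.0713% of all genes were called. Unadjusted p-values under 0.05 were found in 4, all lower in Caco2, against 2.68% of all genes. CDCA2 had -0.01 in Caco2 and 0.77 in WM115, a difference of -0.79 ± 0.27 (limma, adjusted p = 0.654). CKS2 had -0.37 in Caco2 and 0.31 in WM115, and CKS1B had -0.29 in Caco2 and 0.31 in WM115. KIF14 had -0.05 in Caco2 and 0.52 in WM115, and TTK had 0.08 in Caco2 and 0.61 in WM115. The lines are thus not shown to differ for any single gene.

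**Figure D4:**
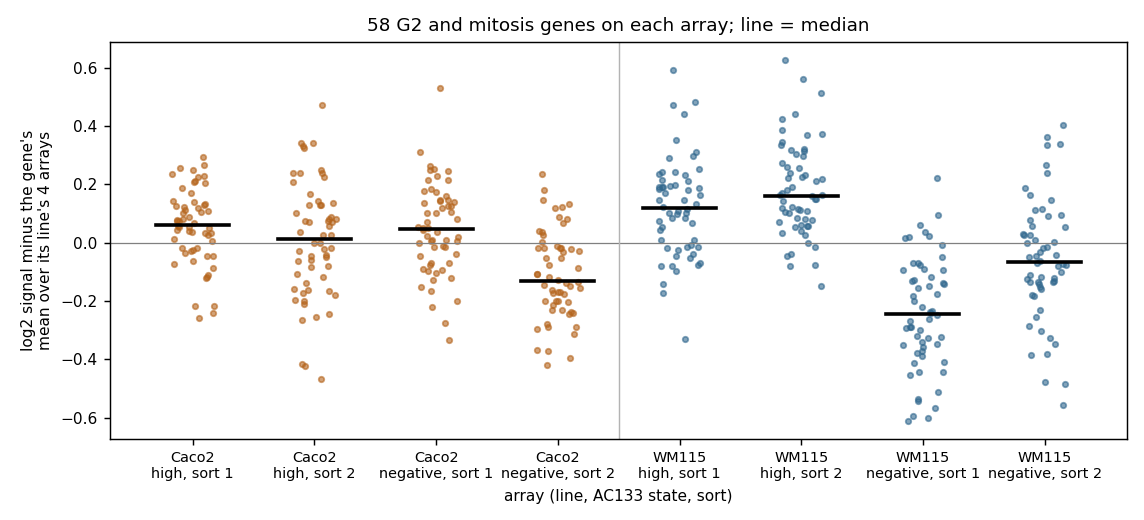
Signal of the 58 genes on each of the 8 arrays, relative to each gene's mean over the 4 arrays of its line. The x axis gives the array and the y axis the log2 signal minus that mean, points are genes, and the thick line is their median. The median is lowest on the WM115 AC133 negative array of the first sort, at -0.25, and highest on the WM115 AC133 high array of the second, at 0.16.

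Genes with related roles were read from lists of their own. Of 47 other mitotic genes, such as further kinesins, kinetochore and condensin genes, 42 were tested. In WM115 their median was 0.22 with 39 of 42 higher in AC133 high cells, and in Caco2 it was 0.06 with 27 of 42 higher. Picked after their values were seen, TROAP, a protein of microtubules, was at 0.50 and FAM83D, a spindle protein, at 0.71 in WM115. LMNB1, a lamin of the nuclear envelope, had the largest difference of that list there by size, at -0.76, with 7.07 and 6.83 in AC133 high cells and 7.12 and 8.31 in AC133 negative cells. It was -0.05 in the first sort and -1.48 in the second, so it rested on the AC133 negative array that stood apart. The 13 subunits of the anaphase-promoting complex, the ligase on which CDC20 acts, had a median of 0.05 in WM115. The 9 tested regulators of the MuvB family and their partners had 0.00, and the 5 tested brakes on CDK1 had 0.02. CDKN1A, the CDK inhibitor p21, picked in the same way, was at -0.68 ± 0.22 in WM115 and -0.11 ± 0.22 in Caco2. The S phase and DNA replication genes lay the other way, with 13 of 43 higher and a median of -0.11 in WM115, and with 13 of 43 higher and a median of -0.12 in Caco2. The WM115 sorts differed, with 6 of 43 higher in the first (median -0.18) and 19 of 43 in the second (median -0.04). In Caco2, 15 of 43 were higher in the first sort (median -0.10) and 12 of 43 in the second (median -0.13). Within lines, no gene of these lists was called.

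Between the lines the 58 genes differed in both directions. Caco2 minus WM115 was called in 38 of 58, with 21 higher in Caco2, against 30.4% of all genes, and 17 lower, against 29.9%. All 4 Caco2 arrays lay above all 4 WM115 arrays in 18 genes, against 28.7% of all genes, and below in 13, against 28.4%. The share of these genes that differed between lines was thus close to that of all genes, and the median difference was 0.15, against 0.02 over all genes. With 1 array left out the median ran between 0.0707, without the AC133 negative array of the first WM115 sort, and 0.175, and it was 0.085 without the AC133 high array of the second Caco2 sort.

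Most cyclins and their regulators were higher in Caco2, with 6 of 9 called higher, against 30.4% of all genes, and 2 called lower, against 29.9%. CDK1 had 11.13 to 11.53 over the Caco2 arrays and 10.00 to 10.62 over the WM115 arrays. The lines did not overlap, at 1.00 ± 0.12 (limma, adjusted p = 1.07e-04). CCNA2 averaged 10.68 ± 0.21 in Caco2 and 9.66 ± 0.24 in WM115 (SD, n = 4 each), which is 2.03-fold (limma, adjusted p = 7.56e-05). The 4 arrays of a line are 2 sorts in both AC133 states. Each SD here and below thus also holds the AC133 difference and is not a spread of 4 independent samples. CCNB1 averaged 9.89 ± 0.23 in Caco2 and 8.82 ± 0.38 in WM115 (SD, n = 4 each), which is 2.10-fold (limma, adjusted p = 0.00106). FOXM1, the transcription factor of late cell cycle genes, was 2.27-fold higher in Caco2. CKS2 had the largest difference of the 58 and lay the other way, at 9.25 ± 0.29 in Caco2 and 10.90 ± 0.24 in WM115 (SD, n = 4 each). It was 3.14-fold lower in Caco2 (limma, adjusted p = 2.06e-05).

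The CENPA loading factor HJURP averaged 7.75 ± 0.15 in Caco2 and 9.23 ± 0.29 in WM115 (SD, n = 4 each), 2.79-fold lower in Caco2 (limma, adjusted p = 1.01e-05). CENPA itself was not called, at -0.20 ± 0.15 (limma, adjusted p = 0.282). NUF2, of the kinetochore complex that grips microtubules, was 2.03-fold lower in Caco2, and CENPE, a kinetochore motor, was 1.91-fold higher. Kinesins split as well, with KIF20B 1.96-fold higher and KIF14 2.24-fold lower in Caco2 (limma, adjusted p = 5.60e-05).

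In the spindle group, HMMR was 2.07-fold higher in Caco2, while CKAP2L, GAS2L3, NUSAP1 and PSRC1 were lower by between 1.74-fold and 2.28-fold. GAS2L3, which links actin and microtubules, read 4.73 to 4.87 on the Caco2 arrays, and 5.23 to 6.10 on the WM115 arrays. ANLN was 1.75-fold lower in Caco2. In anaphase control, CDCA3, a trigger of mitotic entry, was 2.74-fold higher and PIMREG 1.95-fold lower.

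Of the 6 chromosome structure genes 4 were called higher in Caco2, against 30.4% of all genes, and none lower, against 29.9%. HMGB2, a chromatin protein that bends DNA, averaged 9.80 ± 0.13 in Caco2 and 8.31 ± 0.16 in WM115 (SD, n = 4 each), which is 2.82-fold (limma, adjusted p = 9.95e-06). NCAPD2, a condensin subunit, was 1.67-fold higher.

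**Figure D5:**
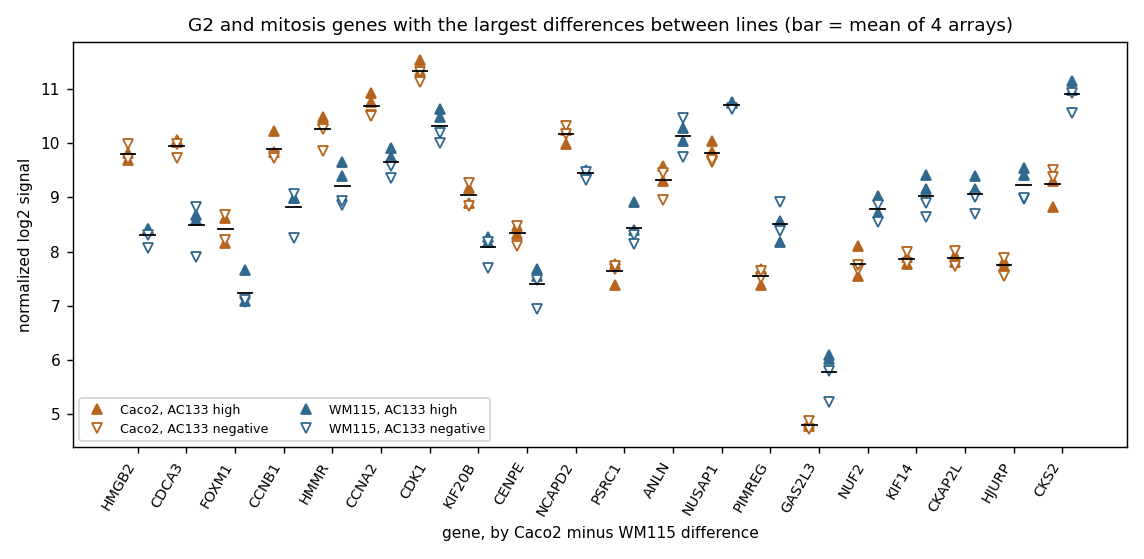
Signals of the 10 genes with the largest called difference in each direction between Caco2 and WM115. The y axis is the normalized log2 signal, and each gene on the x axis has its 4 Caco2 arrays left and its 4 WM115 arrays right, upward triangles for AC133 high, downward open ones for AC133 negative, and a bar at the mean of 4. HMGB2 at the left is 2.82-fold higher in Caco2 and CKS2 at the right 3.14-fold lower.

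Genes with and without the CHR letters had close medians in WM115. There the median was 0.31 in the 36 genes with the letters and 0.34 in the 12 genes with a window and no match, and every gene of both sets was higher in AC133 high cells. The 10 genes outside the promoter table had a median of 0.32 with 8 higher. In Caco2 the medians were 0.09 with the letters, 0.16 without them and -0.03 outside the table.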

How the data were processed

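The 8 arrays were Illumina HumanRef-8 version 2 BeadChips. Per the file headers, the deposited files hold, for every probe, an intensity on a linear scale, a detection p-value against the negative controls of that array, and the number and spread of beads. The authors' joint table holds quantile-normalized intensity. Each file lists 22184 probes, 19715 with a gene. Further processing by the submitters is not given in the sources used here. Intensities were background corrected with limma 3.58.1 in R 4.3.3 (normexp, control level taken from the detection p-values, offset 16), quantile normalized and taken to log2. Probes with a detection p-value under 0.05 on both arrays of at least 1 group were tested (13844 probes, 11214 genes, 1 probe per gene by highest mean signal). Depth has no analogue on arrays, and 2 arrays per group limit the precision. A limma model of 4 group means on all 8 arrays gave every comparison, with 4 residual and 4.35 prior degrees of freedom and Benjamini-Hochberg adjustment over all probes. The fit was tested on simulated, independently drawn arrays with planted differences of 1 or 2 in size. These are larger than any fitted AC133 difference of the G2 and mitosis genes, so smaller differences were not covered. Genes named were, in each line, the smallest p of each functional group. They were the 5 smallest p-values in the average and in the difference, and up to 10 called per direction between lines. Other genes were given by role, by their levels or at the end of a range, with their values seen. They are examples and do not stand for their groups. The labels number the sorts, and samples of the same sort number came from the same sort, so the numbers pair samples. Deviations from the group means correlated within sorts at 0.28 in Caco2 and 0.18 in WM115. The repeats are called biological duplicates in the labels. Promoters are RefSeq windows of GRCh38.p14. The members and lists were chosen with earlier results of these data known.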

Additional observations from a re-analysis of the deposited data

Results flagged for a closer look

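In 8 of the 58 genes, the AC133 difference was negative in both Caco2 sorts and positive in both WM115 sorts, and none of the 58 ran the other way. Of the 58, 41 were positive in both WM115 sorts, 11 were negative in both Caco2 sorts, and only PIMREG was negative in both WM115 sorts. With 41 of 58 positive in WM115, most genes negative in Caco2 would fall in this set without any link between the lines. The share of all genes with this pattern was not computed. The AC133 difference in Caco2 minus that in WM115 was -0.68 for CKS2, -0.60 for CKS1B, -0.57 for KIF14, -0.54 for CDC25B, -0.33 for FOXM1, -0.31 for HMGB2, -0.29 for CENPF and -0.24 for NCAPD2. The test of this difference called none of these (limma, adjusted p between 0.818 and 0.998).

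Among the 20 genes with the largest differences between lines, 1 array lay far from the other 3 of its line in 3 of 40 sets of 4, where chance gives about 1 in 20. FOXM1 read 7.66 on the WM115 AC133 high array of the second sort. CCNB1 read 8.25 on the WM115 AC133 negative array of the first sort, and KIF20B read 7.69 on the WM115 AC133 negative array of the second.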

How the results depend on the processing

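Under every alternative run, no gene of the 58 was called in either line, in the average over them or in their difference. Counts of called probes over the whole array moved more. In WM115 they were 3 as reported, 1 among probes detected on all 8 arrays, 0 with the 4 WM115 arrays alone (642 with an unadjusted p under 0.05 as reported), and 1 by the methods' t-test after Benjamini-Hochberg (499 unadjusted). In Caco2 they were 107 as reported, 56 with the replicate block, 41 after median scaling, 1 among probes detected on all 8 arrays, 1 with the 4 Caco2 arrays alone, and 0 by the methods' t-test after Benjamini-Hochberg (979 unadjusted). In the average they were 13, with 8 under the replicate block, 1 among probes detected on all 8 arrays and 2 by the t-test (1044 unadjusted). In the difference between lines they were 9 (809 with an unadjusted p under 0.05), with 4 under the replicate block, 4 with no filter on dim probes, 0 among probes detected on all 8 arrays and 2 by the t-test (900 unadjusted). Leaving out 1 array at a time gave 3 to 249 in WM115, 8 to 80 in Caco2, 3 to 177 in the average, 0 to 153 in the difference and 7199 to 7903 between lines (8128 as reported), the upper ends of the first 4 without the AC133 negative array of the first WM115 sort. The cause was not tested. The replicate block changed no call of the 58 genes within lines and called 36 between lines, against 38. Between lines 28 were called after median scaling and 22 with the 4 AC133 negative arrays alone, and GAS2L3, ANLN and PSRC1 lost the call there and in no other alternative (adjusted p up to 0.0664). Median scaling kept the median of all probes within 0.05 of 0 in every comparison. The median of the 58 genes in WM115 stayed between 0.25 and 0.38 with 1 array left out. In Caco2 it ran between -0.0235 and 0.152 with 1 array left out and was -0.0119 in the first sort alone, and between lines it ran between 0.0707 and 0.175 with 1 array left out and was -0.000798 with the 4 AC133 high arrays alone. G2E3 in Caco2 was at 0.45 without the AC133 high array of the first sort and -0.0047 without that of the second. By the methods' t-test, 5 of the 58 had an unadjusted p under 0.05 in WM115 and 1 in Caco2. Each sort alone was added after the data were seen.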
